A study of Mus musculus with 62 samples.

Results

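H3K9me3 was compared by CUT&Tag between Daxx-KO and WT haematopoietic stem and progenitor cells (HSPCs) 24 weeks post induction (w.p.i.). CUT&Tag uses an antibody to direct the transposase Tn5 to a chromatin mark, so that the DNA next to the mark is cut and sequenced. The members are all 150482 autosomal sites of the differential table for this mark and time, out of 1109930 sites in the 7 tables that were read, and they rest on 4 of the 62 samples of the series. Each site carries the normalized read counts of 2 Daxx-KO and 2 WT libraries. A site was called gained when both Daxx-KO libraries were above both WT libraries, lost when both were below, and mixed otherwise. Because the table lists only sites that had already passed a comparison of these same libraries, directions and sizes are given as a description and no test was run on them.

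The Daxx-KO mice were Daxx F/F Cre +/- and the WT mice were Daxx +/+ Cre +/-, so that both groups carried Cre and both went through induction. Both were C57BL/6 by the labels, and the study describes a C57BL/6N floxed allele crossed to Cre mice on C57BL/6J. F/F stands for homozygous loxP sites around exons 2 to 7 of Daxx. The study worked with a tamoxifen-inducible and with an Mx1Cre line, and the labels of these mice do not name the driver. The mice that its methods name for RNA sequencing at 24 w.p.i. were Mx1Cre. Mx1Cre mice were induced with 3 injections of polyinosinic:polycytidylic acid. Cells were Lin-negative, c-Kit-positive bone marrow cells enriched on magnetic columns, a mixed population of stem cells and progenitors. The methods say that mice were usually induced within the first months of life and that both sexes were used, without naming these 4 mice, and whether the genotypes were littermates is not given in the sources used here. The same 4 mice also gave the H3K27me3, H3K27ac, H3.3 and Pu.1 libraries at 24 w.p.i., whereas the H3K9me3 libraries at 3 w.p.i. (2 against 2) and 8 w.p.i. (3 against 3) came from other mice.

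H3K9me3 is the histone mark of constitutive heterochromatin. It is written by Setdb1 and the Suv39h methyltransferases and is bound by HP1 proteins. It covers pericentromeric satellites, telomeres, endogenous retroviruses, KRAB zinc-finger gene clusters and clusters of lineage-restricted genes such as the olfactory receptors. Daxx is a histone chaperone that, with Atrx, deposits the variant H3.3 at telomeres, pericentromeres and retroviral repeats, where H3K9me3 is kept. H3K27me3, the mark of Polycomb repression, usually occupies other silent regions than H3K9me3.

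The sequence of a few sites carries much of what follows, so stretches of up to 300 bases from the middle of 7 sites are shown here (mm10, plus strand, from the reference genome), with CG dinucleotides in capitals. They are the gained and the lost promoter site with the largest change, the middles of the widest gained and the widest lost site, the Fbp2 site, and the gained and the lost site with the largest difference in counts.
Pigp and Ttc3 promoter, gained, chr16:94371016-94371199: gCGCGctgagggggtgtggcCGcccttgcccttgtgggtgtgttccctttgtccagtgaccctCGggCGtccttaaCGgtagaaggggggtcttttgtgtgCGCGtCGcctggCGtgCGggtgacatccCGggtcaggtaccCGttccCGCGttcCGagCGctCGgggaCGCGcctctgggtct
Pacs2 promoter, lost, chr12:113014850-113015149: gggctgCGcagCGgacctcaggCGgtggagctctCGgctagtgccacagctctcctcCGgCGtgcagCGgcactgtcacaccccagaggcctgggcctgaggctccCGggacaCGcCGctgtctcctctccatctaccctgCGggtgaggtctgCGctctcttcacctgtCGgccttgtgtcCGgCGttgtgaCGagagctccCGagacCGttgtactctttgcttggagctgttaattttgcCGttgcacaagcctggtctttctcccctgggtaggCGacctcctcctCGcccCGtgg
Unc93a site, widest gained, chr17:13121400-13121699: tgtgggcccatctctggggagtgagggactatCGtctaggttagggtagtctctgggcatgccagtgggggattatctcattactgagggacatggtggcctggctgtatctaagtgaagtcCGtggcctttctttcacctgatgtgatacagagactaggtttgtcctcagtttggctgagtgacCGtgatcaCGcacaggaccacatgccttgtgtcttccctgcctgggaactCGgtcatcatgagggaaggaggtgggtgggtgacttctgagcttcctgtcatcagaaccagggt
Ttn site, widest lost, chr2:76718525-76718824: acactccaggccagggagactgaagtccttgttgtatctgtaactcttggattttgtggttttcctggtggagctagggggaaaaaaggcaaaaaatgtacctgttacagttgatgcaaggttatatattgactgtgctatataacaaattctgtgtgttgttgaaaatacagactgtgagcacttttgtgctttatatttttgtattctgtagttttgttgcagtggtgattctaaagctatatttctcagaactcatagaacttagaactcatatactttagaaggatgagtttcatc
Fbp2 site, gained, chr13:62856150-62856449: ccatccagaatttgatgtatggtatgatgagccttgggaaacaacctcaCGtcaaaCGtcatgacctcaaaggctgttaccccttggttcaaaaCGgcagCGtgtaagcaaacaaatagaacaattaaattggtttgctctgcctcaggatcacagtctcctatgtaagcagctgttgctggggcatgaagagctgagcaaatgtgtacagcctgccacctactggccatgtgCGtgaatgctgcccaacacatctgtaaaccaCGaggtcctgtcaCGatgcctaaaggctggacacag
Chromosome 1 site next to Col19a1, gained, chr1:24613725-24614024: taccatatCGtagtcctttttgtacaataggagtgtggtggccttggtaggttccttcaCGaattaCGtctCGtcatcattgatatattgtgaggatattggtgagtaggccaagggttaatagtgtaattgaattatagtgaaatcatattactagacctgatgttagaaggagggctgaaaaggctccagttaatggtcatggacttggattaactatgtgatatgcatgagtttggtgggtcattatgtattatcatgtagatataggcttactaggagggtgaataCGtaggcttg
Chromosome 2 site next to Gm10801, lost, chr2:98664350-98664649: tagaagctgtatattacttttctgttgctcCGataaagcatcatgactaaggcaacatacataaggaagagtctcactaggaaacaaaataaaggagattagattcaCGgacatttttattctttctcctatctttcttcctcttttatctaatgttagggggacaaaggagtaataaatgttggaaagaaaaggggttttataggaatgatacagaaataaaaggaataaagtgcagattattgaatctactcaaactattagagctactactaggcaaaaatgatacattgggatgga
The Pigp and Pacs2 stretches are dense in CG (20 CG in 184 bases and 22 CG in 300 bases), the Ttn stretch has 0 CG, and the chromosome 2 stretch has 2 CG.

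H3K9me3 was gained at 70587 sites (46.9% of those listed) and lost at 75716 (50.3%), and 4179 sites were mixed. The size of a change is given as log2 of the Daxx-KO mean plus 1 over the WT mean plus 1. Its median was 2.00 over gained and -1.57 over lost sites. The means differed at least 2-fold at 86.9% of gained and 84.1% of lost sites. Gained sites had a median Daxx-KO mean of 54.9 normalized counts against 12.3 in WT, and lost sites had 16.6 against 54.2. Both WT libraries were at 0 at 3591 gained sites and both Daxx-KO libraries at 839 lost sites. With these sites set to the bound that 3 reads in each library allow, the medians were still 2.00 and -1.57. This could not come out otherwise, since such sites stay beyond the medians at that bound. Sites were short, with a median length of 750 bp in both directions, and covered 59.9 Mb (gained) and 63.8 Mb (lost).

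The libraries were not equally deep, and this bears on the counts above. The mean number of reads per window was 7.26 and 9.11 in Daxx-KO against 5.62 and 5.22 in WT. After the authors' normalization the mean per window was 4.63 and 9.51 in Daxx-KO against 8.76 and 4.90 in WT, so Daxx-KO library 2 and WT library 1 stood above the other library of their group. Daxx-KO library 2 was above Daxx-KO library 1 at 78.0% of gained sites, and WT library 1 was above WT library 2 at 73.4% of lost sites. When the libraries were rescaled to the same mean per window, 85.8% of the gained and 84.7% of the lost sites kept their call and none changed direction. The part of depth in the other changes was not tested.

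The Daxx locus itself could not be checked with H3K9me3, because no site of this table lay within 50 kb of the gene. The other tables of the same mice hold such a check. H3K27ac over a 3600-bp site from exon 2 to exon 6 of Daxx (chr17:33909801-33913400) was 113 and 93.7 in Daxx-KO against 858 and 368 in WT, and Pu.1 over exons 5 and 6 (chr17:33912801-33913750) was 0 and 0 against 63.3 and 44.2. Both overlap the floxed part, and the Daxx-KO libraries of these mice were below the WT libraries there. H3K27ac sites over exon 1 and over exon 8, outside the floxed part, were gained.

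The purity of the population could not be judged from levels, since a gene without a changed site has no value in the table. Of 21 called sites at the 6 HSPC marker genes (Kit, Cd34, Gata2, Meis1, Tal1 and Runx1), 17 were gained, against 4 of 7 sites at 6 neutrophil, 12 of 25 at 4 B cell, 1 of 2 at 4 T cell and 3 of 4 at 4 erythroid marker genes. Over all genes 56.5% of called sites were gained, and 13 of the 21 HSPC sites (11 gained and 2 lost) belong to Runx1. Fewer cells of a type and less mark per cell cannot be told apart in these bulk libraries.

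At promoters, taken as 1 kb on each side of the start of a protein-coding gene, H3K9me3 was gained more often than lost. There were 2868 gained promoter sites (4.06% of gained sites) and 1570 lost ones (2.07% of lost sites). Of the called promoter sites 64.6% were gained (Wilson 95% interval 63.2 to 66.02, which covers counting error only), compared with 63.9% at exons, 55.1% in introns and 42.6% outside genes. Of the 20807 autosomal protein-coding genes, 2951 (14.2%) had a gained and 1615 (7.76%) a lost promoter site, and 205 (0.985%) had both. Promoters are rich in GC, and called sites of the same GC content anywhere in the genome were gained in 64.7%, a difference of -0.08 percentage points.

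The 10 genes per direction with the largest promoter change lie at 8 gained and 8 lost sites. The gained ones had no read in either WT library. The first overlaps both Pigp, a subunit of the enzyme that starts the GPI anchor, and Ttc3, a ubiquitin ligase, which start close to each other on opposite strands (chr16:94370451-94371650). It had 98.8 and 177 normalized counts in Daxx-KO against 0 and 0 in WT, at least 36.8-fold higher against a floor of 3 reads in each library. At the promoter of Asprv1, an aspartic protease of the skin (chr6:86626351-86627450), the Daxx-KO libraries had 82.9 and 116 and the WT libraries 0 and 0 (at least 26.5-fold). In these 2 sites both Daxx-KO libraries were high. At the other 6 sites Daxx-KO library 2 was well above library 1.

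At Tmprss13, a membrane serine protease, the Daxx-KO counts were 37.0 and 188. At Fbxl15, a substrate receptor of a ubiquitin ligase, which shares its site with Psd, an exchange factor for Arf6, they were 24.2 and 188. At Zmym5 they were 26.8 and 183. The same split between the Daxx-KO libraries was seen at the promoters of 1190005I06Rik, Map1lc3a and Gm20219. For Map1lc3a, which encodes the autophagosome protein LC3A, the counts were 47.2 and 142. All 8 sites stayed gained when the libraries were rescaled to the same depth.

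The 8 lost promoter sites with the largest change had no read in either Daxx-KO library. Pacs2, a sorting protein of the contacts between endoplasmic reticulum and mitochondria (chr12:113014601-113015400), had 0 and 0 in Daxx-KO against 131 and 35.6 in WT, at least 32.9-fold lower. Tep1, a protein of the telomerase complex (chr14:50870051-50871000), had 0 and 0 against 103 and 39.4 (at least 28.1-fold). Abl2, a cytoplasmic tyrosine kinase (chr1:156558151-156559300), had 0 and 0 against 103 and 31.9 (at least 26.6-fold). WT library 1 was the higher WT library at all 8 sites.

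The next sites in this order were at Snrnp25, a protein of the minor spliceosome (0 and 0 against 101.04 and 20.6), and at Cracr2a, a regulator of store-operated calcium entry (0 and 0 against 68.4 and 47.8). A single site served the divergent pair Cdc45, a subunit of the replicative helicase, and Ufd1, a ubiquitin-binding partner of p97, with 0 and 0 against 70.0 and 45.0. The remaining 2 lay inside 1700003E16Rik near the start of Wdr54 (0 and 0 against 83.9 and 28.1) and at Isl1, a LIM homeodomain factor of the heart and motor neurons (0 and 0 against 74.6 and 33.7). All 8 stayed lost after rescaling to the same depth.

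**Figure D1:**
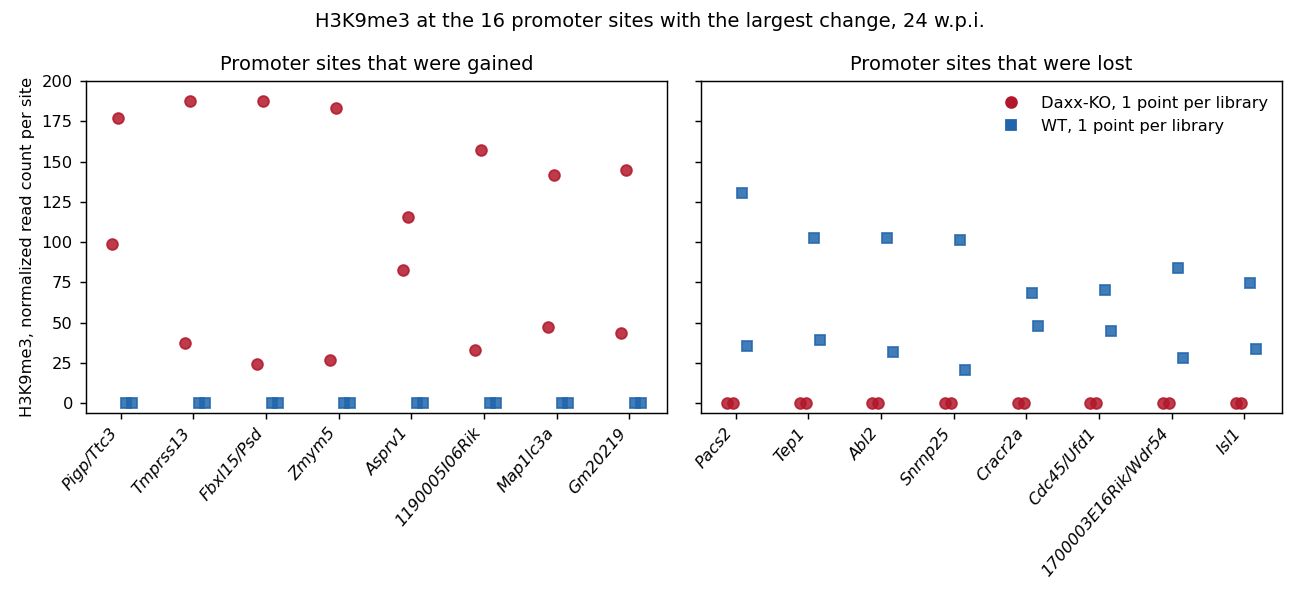
Normalized H3K9me3 read counts (vertical axis) at the 8 gained and the 8 lost promoter sites with the largest change, 1 point for each library. The WT libraries are at 0 at every gained site and the Daxx-KO libraries at every lost site, and the points of the higher group are spread widely, from 24.2 to 188 at the Fbxl15 and Psd site.

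Some genes of H3K9 methylation and repeat silencing had changed promoters. Of the 20 genes of this list 4 had a gained (20.0%) and 2 a lost promoter site (10.0%), beside 14.2% and 7.76% of all genes. Setdb1, the methyltransferase that silences retroviruses, had 33.8 and 44.8 in Daxx-KO against 0 and 0 in WT (at least 10.5-fold higher). Pphln1, a subunit of the HUSH silencing complex, had 33.2 and 50.0, against a WT mean of 1.71. Morc3, an ATPase of heterochromatin, had 42.7 and 40.7 against 10.9 and 0. Uhrf1, which reads H3K9me3 and guides DNA methylation, moved the other way, with 0 and 20.9 against 115 and 58.1. Among the 9 genes of H3.3 and its chaperones only Ubn1, a subunit of the Hira complex, had a changed promoter site (82.9 and 56.3 against 0 and 24.4).

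Promoters of blood cell regulators changed in both directions. A gained promoter site was present in 12.5% of stem cell, 11.1% of myeloid and 14.3% of B lineage genes, beside 14.2% of all genes. A lost one was present in 6.25%, 0% and 7.14%, beside 7.76% of all genes. Among the stem cell genes, Tal1, a master regulator of blood formation, was gained (37.0 and 64.6 against 0 and 4.69), as was Kit, the receptor used for the enrichment (42.1 and 75.04 against 18.7 and 1.87). Of 18 myeloid genes 2 had a gained and none had a lost promoter site. Irf8, the factor of monocyte and dendritic cell fate, had 35.7 and 62.5 against 0 and 0 (at least 13.1-fold), and Prtn3, a granule protease, had 38.9 and 44.8 against 0 and 0 (at least 11.2-fold). In the B lineage list of 14 genes, Igll1 and Irf4 were gained and Cd79b, a chain of the B cell receptor, was lost (15.9 and 18.8 against 106 and 46.9).

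Of 18 genes of nucleic acid sensing and the interferon response, 3 had a gained and 1 a lost promoter site. Stat2, the interferon signal transducer, had 47.2 and 47.9 in Daxx-KO against 0 and 0 in WT (at least 12.7-fold higher). Mx1, an antiviral GTPase, had 93.7 and 231 against 6.22 and 45.0, and Oas3, which makes the activator of RNase L, had 26.8 and 113 against 17.1 and 1.87. Oasl2 was the exception, with 0 and 0 against 62.2 and 29.98 (at least 18.3-fold lower). These counts are read beside 14.2% of all genes with a gained and 7.76% with a lost promoter site, and each list holds few genes.

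Several families of clustered genes had a smaller share of gained sites. Over the gene bodies and 5 kb on each side, 62.5% of all protein-coding genes had a gained and 48.6% a lost site, and 56.5% of their called sites were gained. Of the 26 gene families with at least 20 called sites, 21 had a smaller gained share than this. Counted by genes, 15 of all 40 families had a larger share of members with a lost site than all genes, and 11 a larger share with a gained site. In the olfactory receptors (Olfr) 262 of 1128 genes had a gained and 472 a lost site, and 31.9% of 924 called sites were gained. In the pheromone receptors of the Vmn2r family it was 56 and 78 of 121 genes and 27.3% of 293 sites. The Skint genes, which select skin T cells, had a gained site in 8 and a lost site in all 11 members, with 23.4% of sites gained. The Pramef and Pramel genes of germ cells had a gained site in 7 and a lost site in all 11 members, with 22.5% of sites gained. Many of these genes lie side by side and share sites, so they are not independent.

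These shares were also read beside GC content. Called sites of the same GC content as the Olfr sites were gained in 42.1%, which is 10.2 percentage points above the share in the family. The same held for Vmn2r (39.6%), Skint (38.1%) and Pramef and Pramel (39.2%). The sites were also rich in soft-masked repeats, with a median share of 44.9% for Olfr and 75.8% for Skint beside 24.0% over all called sites, and the part of repeats in these shares was not tested. The zinc-finger genes (Zfp, Zscan and Zkscan) differed: 261 of 415 genes had a gained and 264 a lost site, and the gained share of 43.98% was close to that of sites with the same GC content (44.2%). The Vmn1r receptors were alike in this, with 40.5% beside 40.9%.

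Some families were gained more often than all genes. All protein-coding genes together had 56.5% of called sites gained, beside 52.5% for the same GC content. The clustered protocadherins (Pcdh), which give neurons their identity, had 64.0% of 86 sites gained, beside 56.2% for the same GC content. For the major histocompatibility genes (H2-) it was 67.6% of 37 sites beside 57.2%, and for the C-type lectins (Clec) 65.5% of 55 sites beside 53.0%. Among the lists by role the gained share was 60.7% for B lineage genes (54.3% for the same GC content), 69.5% for stem cell genes (54.4%), 70.0% for H3.3 and its chaperones (58.6%), 70.6% for H3K9 methylation and repeat silencing (58.5%), 72.4% for myeloid genes (64.7%) and 75.8% for sensing and interferon genes (55.9%). These rest on 29 to 68 called sites each, and single genes hold many of them. Cabin1 had 14 gained and 8 lost of the 30 sites at H3.3 and chaperone genes. Dnmt3a had 14 and 4 of the 68 sites at silencing genes. Of the 59 stem cell sites Runx1 had 11 and 2 and Erg 11 and 3. Pax5 had 11 and 11 of the 56 B lineage sites.

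**Figure D2:**
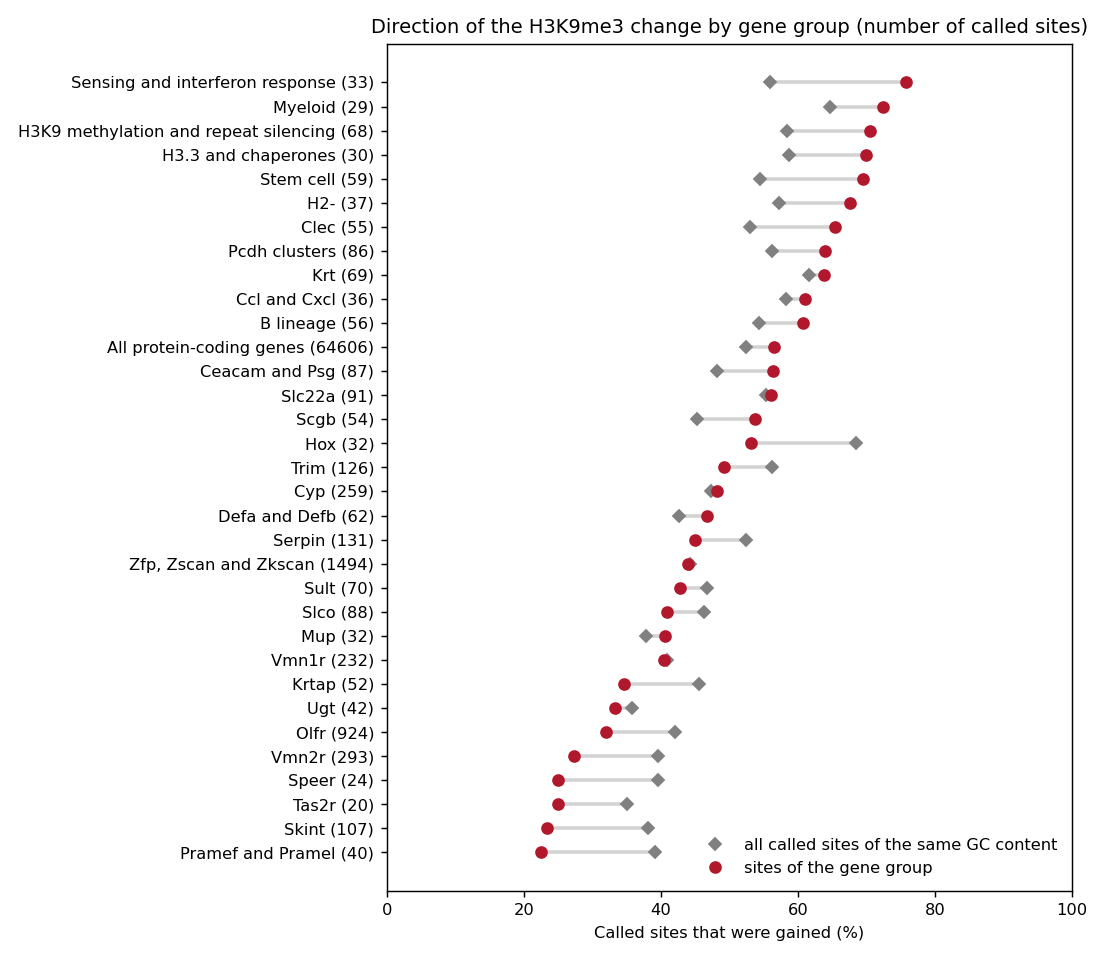
Share of called H3K9me3 sites that were gained (horizontal axis, %) for each gene group with at least 20 called sites (circles), beside the share over all called sites of the same GC content (diamonds), with the number of called sites in brackets. Receptor and germ cell families sit at the bottom, with 22.5% for Pramef and Pramel and 31.9% for Olfr, and the regulator lists at the top, with 75.8% for sensing and interferon genes.

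Fbp1 and Fbp2, which encode fructose-1,6-bisphosphatases of gluconeogenesis, lie next to each other on chromosome 13, and H3K9me3 was gained at every called site around them. Within 50 kb, 6 of 6 sites for Fbp1 and 7 of 7 for Fbp2 were gained, 6 of them shared. The main site is 5000 bp wide and covers the start of Fbp2 (chr13:62853801-62858800). It had 2345 and 1614 in Daxx-KO against 424 and 399 in WT, a size of 2.26. Other mice had gained sites at the same place: at 3 w.p.i. a site at chr13:62857301-62859350 had 131 and 108 against 43.8 and 52.8, and at 8 w.p.i. a site at chr13:62854151-62855700 had 44.3, 46.9 and 29.4 against 3.16, 5.06 and 2.5. Around them the earlier tables were less uniform, with 4 of 4 (Fbp1) and 5 of 6 (Fbp2) sites gained at 3 w.p.i. and, for each gene, 3 gained, 2 lost and 1 mixed site at 8 w.p.i. H3K27me3 was lost at 22 of 22 listed sites within 50 kb of each gene, while 41.8% of all called H3K27me3 sites were gained. The windows of the 2 genes overlap, so sites in both are counted for both. On rescaling to the same depth 5 of 6 and 6 of 7 H3K9me3 sites stayed gained.

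Spi1, which encodes the myeloid pioneer factor Pu.1, had 11 sites within 50 kb, 6 gained and 5 lost. Inside the gene, a site at chr2:91098701-91099400 had 51 and 50.0 in Daxx-KO against 0 and 0 in WT, while a site at chr2:91086601-91087600 had 2.55 and 4.17 against 49.7 and 80.6. The sites were small and of opposite direction, with both libraries of a group on the same side. No H3K9me3 site was listed around Spi1 at 3 or 8 w.p.i. All 12 listed H3K27me3 sites there were lost at 24 w.p.i., while 41.8% of all called H3K27me3 sites were gained. All 11 H3K9me3 calls stayed after rescaling to the same depth.

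There were 36 gained and 15 lost sites of at least 5 kb, with a median size of 1.62 and -1.50, both smaller than over all gained and lost sites. Of the gained ones 29 lay on chromosome 17 between 12 and 15 Mb, over and around Map3k4, Tcp10b, Unc93a, the Smok2 kinase genes and Smoc2, in the proximal part of the chromosome known for the t-complex. The widest covers 17600 bp around Unc93a (chr17:13112751-13130350) and had 4999 and 3892 in Daxx-KO against 1435 and 1681 in WT. The steepest of the wide gains lay in Map3k4, a kinase of stress signalling (chr17:12266951-12274300), with 2236 and 1349 against 155 and 200.5, a size of 3.32. A site next to Smoc2 (chr17:14409851-14421050) had 2214 and 1560 against 347 and 259. In all 3 the lower Daxx-KO library was above the higher WT library by more than the spread within either group.

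The other 7 wide gained sites were spread over the genome. Beside the Fbp2 site they lay at Zscan20 on chromosome 4 (chr4:128578751-128588100, with 3968 and 2865 against 1150 and 1359), in Aldh18a1, the first enzyme of proline synthesis (chr19:40566801-40572800, with 828 and 905 against 233 and 233), near Asap2 on chromosome 12 (chr12:20934651-20943200, with 866 and 903 against 283 and 283), near Cks2 on chromosome 13 and near H2-Q10 on chromosome 17. The last is a site next to Col19a1 (chr1:24611051-24616700), in which 81.3% of all 30-base words also occur in mitochondrial DNA, so that reads from the nucleus and from mitochondria cannot be told apart there. It had 9691 and 29303 in Daxx-KO against 4489 and 3643 in WT, and its Daxx-KO libraries differed from each other by more than Daxx-KO library 1 did from WT.

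The wide lost sites lay on 9 chromosomes, not including chromosome 17, and 6 of the 15 had a WT mean over 4 times the Daxx-KO mean. They lay in Ttn, Smyd3, Cdyl2, Arl15, Nrros and Sorcs2, 5 of them with their middle in an intron. The widest is a 10850-bp site in Ttn, the gene of the muscle protein titin (chr2:76713251-76724100), with 225 and 351 in Daxx-KO against 1565 and 1351 in WT. The site in Smyd3, a lysine methyltransferase gene (chr1:179431251-179439200), had 273 and 302 against 1200 and 1436. The deepest loss was in Arl15 (chr13:113914201-113920400), with 15.3 and 129 against 1028 and 901. Cdyl2, which encodes a chromodomain protein that binds H3K9me3, had 100.1 and 219 against 1104 and 914 (chr8:116665751-116672300). In all 4 the groups were far apart. Since the study crossed C57BL/6N and C57BL/6J mice, a difference in background between the groups cannot be told apart from the genotype at these sites, and it was not tested.

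Where other mice had a listed site, its direction was mostly that of the wide site. At 3 w.p.i. a listed site overlapped 35 of the 36 wide gained and 12 of the 15 wide lost sites, and every overlapping site, 84 and 22 in all, had the same direction as at 24 w.p.i. At 8 w.p.i. 33 wide gained sites were overlapped by 95 gained, 0 lost and 9 mixed sites, and 11 wide lost sites by 19 lost sites and no other. The Ttn site was lost over 19200 bp at 3 w.p.i. (69.8 and 73.3 against 1493 and 1722) and over 18050 bp at 8 w.p.i. (237, 176 and 182 against 1593, 1477 and 1519). The Smyd3 site was lost at both times as well, with 32.6 and 20.0 against 880 and 837 at 3 w.p.i. These counts are read beside the 78.9% (3 w.p.i.) and 64.7% (8 w.p.i.) of all called sites that were gained. Of the 36 wide gained sites 29 lie in the same part of chromosome 17, so they are not independent. These tables list changed sites only, so a wide site without a listed site has no value at that time. After rescaling to the same depth, 26 of the 36 wide gained and 10 of the 15 wide lost sites kept their call.

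**Figure D3:**
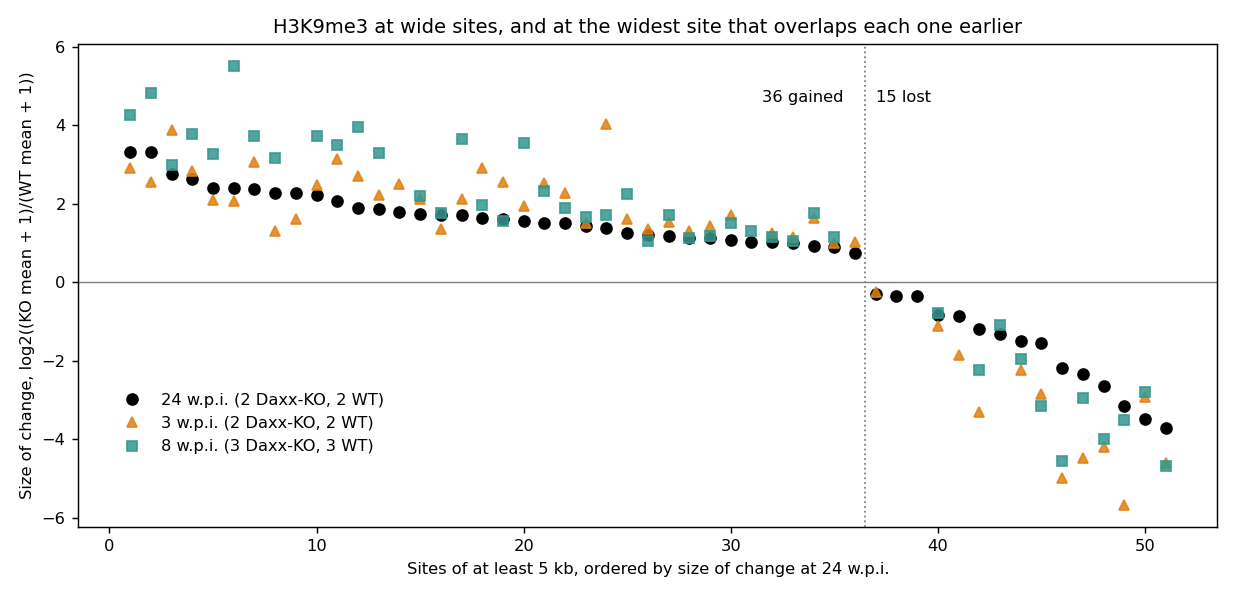
Size of the H3K9me3 change (vertical axis, log2 scale with a pseudocount of 1) at the 36 gained and 15 lost sites of at least 5 kb, ordered by size at 24 w.p.i. (circles), and at the widest listed site that overlaps each at 3 w.p.i. (triangles) and 8 w.p.i. (squares). All points of the 36 gained sites lie above 0 and all points of the 15 lost sites below 0, and the deepest loss is -5.67, at Nrros at 3 w.p.i.

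H3K27me3 of the same mice changed in the opposite direction at the wide gained sites. Listed H3K27me3 sites overlapped 28 of the 36, and all 71 of these H3K27me3 sites were lost. Most of the 28 lie in the part of chromosome 17 that holds 29 of the 36, so they are not independent. Elsewhere the overlapped wide gained sites were those next to Col19a1, near Asap2, near Cks2, at Fbp2 and near H2-Q10. Each had only lost H3K27me3 sites. The wide gained sites at Zscan20 and in Aldh18a1 had no listed H3K27me3 site. At the 15 wide lost sites 4 H3K27me3 sites were gained, 3 lost and 3 mixed. Of all called H3K27me3 sites 41.8% were gained.

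The lost site with the most reads lay on chromosome 2. The site at chr2:98662301-98666700, of which a stretch is shown above, had 728682 and 870369 in Daxx-KO against 1399608 and 1278097 in WT, a size of -0.74, and 41.3% of its bases were soft-masked. At the proximal end of chromosome 9 the sites at chr9:3013501-3022850, chr9:3025551-3032150 and chr9:3032901-3038700 were 92.7% to 96.0% soft-masked as repeats and matched themselves best at a shift of 234 bases. The first had 516217 and 480053 against 633324 and 599612, 1.24-fold lower. These differences were small and built on very high counts, and the chromosome 9 site became mixed after rescaling to the same depth while the chromosome 2 site stayed lost. Reads from tandem copies such as those on chromosome 9 have an uncertain place.

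Called sites of the same direction followed each other in stretches. A stretch is a run of at least 5 called sites of the same direction, each at most 25 kb from the next, with no called site of the other direction between them. There were 2099 gained stretches with 21.9% of the gained sites and 2755 lost stretches with 26.9% of the lost sites. Their median span was 39.0 kb and 42.1 kb. Of the gained stretches 43 and of the lost stretches 47 had 20 sites or more.

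The longest stretch of all was gained and runs over 736 kb of chromosome 17 (chr17:13826101-14561850), from Afdn, a protein of cell junctions, over Gm7168, Gm7356, Gm7358 and Dact2, an inhibitor of Wnt signalling, to Smoc2. It holds 215 gained sites and no lost or mixed site, and 354 kb of it is covered by them. The median count over these sites was 143 and 110 in Daxx-KO against 32.6 and 15.0 in WT, and the median size was 2.52. In other mice the same stretch held 173 sites at 3 w.p.i., all gained. At 8 w.p.i. it held 166 sites, of which 162 were gained and 4 mixed. Over all called sites 78.9% and 64.7% were gained at these times. H3K27me3 was lost at all but 1 of the 202 listed sites of the stretch, while 41.8% of all called H3K27me3 sites were gained. H3.3 had 57 gained and 70 lost sites there and Pu.1 had 59 and 75. After rescaling to the same depth 207 of the 215 sites stayed gained.

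**Figure D4:**
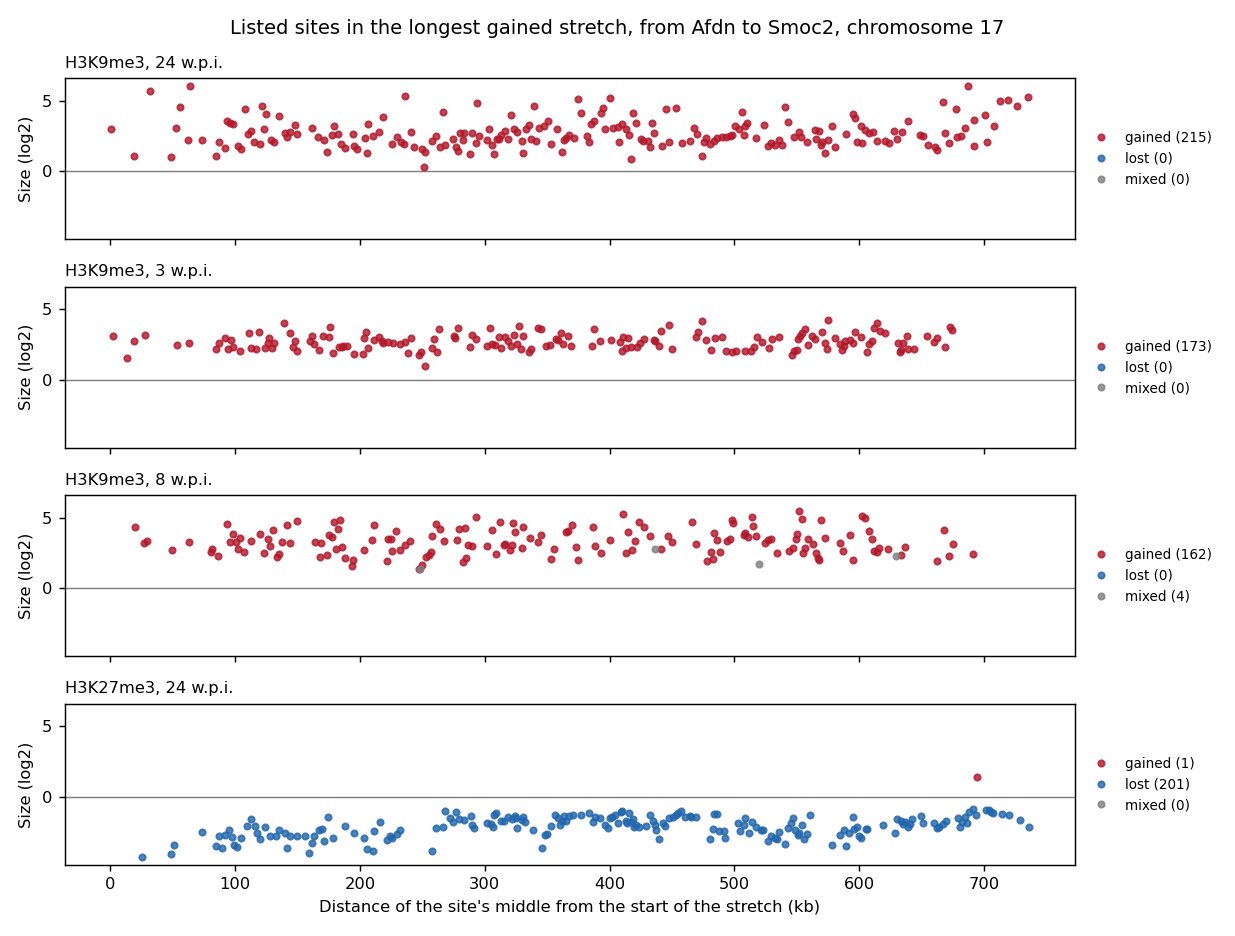
Size of the change (vertical axes, log2 scale) at each listed site of the longest gained stretch, by its distance from the start of the stretch (horizontal axis, kb), for H3K9me3 at 24, 3 and 8 w.p.i. and for H3K27me3 at 24 w.p.i. The 215, 173 and 166 H3K9me3 sites lie above 0, and all but 1 of the 202 H3K27me3 sites lie below 0.

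Daxx is on the same chromosome, 19.3 Mb from the end of this stretch. In the 5 Mb on each side of Daxx 335 sites were gained and 256 lost, 56.7% of called sites, compared with 53.4% over chromosome 17 and 48.2% over all autosomes. Between 12 and 15 Mb of the chromosome 520 sites were gained and 35 lost at 24 w.p.i., 338 and 21 at 3 w.p.i. and 368 and 11 at 8 w.p.i., and after rescaling to the same depth the 24-week counts were 436 and 31. H3K27me3 had 35 gained and 481 lost sites and H3K27ac 84 and 303. The chromosome 17 of the floxed allele and the genotype cannot be told apart in this design, since all Daxx-KO mice carry the allele.

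The next gained stretches had fewer sites. A stretch of 51 sites (chr17:13420601-13591200) lay in the same part of chromosome 17, and a stretch of 48 sites (chr17:7299751-7435000) covered Rps6ka2, Tcp10a, Ttll2 and Unc93a2. In Myt1l, a neuronal repressor on chromosome 12 (chr12:29757651-29907750), 47 sites had a median count of 57.4 and 83.4 in Daxx-KO against 24.9 and 18.7 in WT. A stretch of 38 sites on chromosome 1 lay 111 kb from En1, a homeobox gene, with a median of 79.1 and 88.6 against 30.3 and 33.3. The 10 earlier sites in Myt1l, 3 at 3 w.p.i. and 7 at 8 w.p.i., were all gained, beside 78.9% and 64.7% of all called sites. After rescaling to the same depth 35 of the 51, 38 of the 48, 44 of the 47 and 28 of the 38 sites of these stretches stayed gained.

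Of the 5 lost stretches with the most sites, 3 hold receptor or zinc-finger genes. The first, with 60 lost sites, held Vmn2r63, Gm9268 and the zinc-finger gene Zfp936 on chromosome 7 (chr7:42878401-43116450), with a median of 23.9 and 27.6 in Daxx-KO against 79.3 and 72.6 in WT. It was lost in other mice too, at 38 of 40 sites at 3 w.p.i. and 37 of 41 at 8 w.p.i. The second, with 43 sites over 381 kb, ran through 20 protein-coding genes on chromosome 2, all but Gm13762 of the Olfr family (chr2:88963751-89344950; 17.9 and 16.7 against 56.0 and 49.7) and was lost at 14 of 16 and 23 of 26 sites. A stretch that held Zfp986 on chromosome 4 (chr4:145797201-145899500) had 34 sites at 88.9 and 85.5 against 166 and 146, of which 13 stayed lost after rescaling to the same depth. It was lost at 13 of 19 sites at 3 w.p.i. and 25 of 30 at 8 w.p.i.

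The other 2 of these 5 lost stretches did not keep their direction over time. Neither holds a protein-coding gene. At chr9:112876751-113069000 all 39 sites were lost at 24 w.p.i. (median 20.4 and 14.6 against 63.7 and 60.9), but 9 of 15 sites were gained at 3 w.p.i. and 14 of 15 at 8 w.p.i. At chr3:158994901-159304400 37 sites were lost at 24 w.p.i., whereas 39 of 41 were gained at 3 w.p.i., and at 8 w.p.i. 18 were gained and 16 lost. Over all called sites 78.9% were gained at 3 w.p.i. and 64.7% at 8 w.p.i. After rescaling to the same depth 32 of the 39 and 28 of the 37 sites stayed lost.

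In windows of 1 Mb the same contrast returned. Of 2297 windows with at least 20 called sites, 27 had 80% or more of them gained and 172 had 20% or fewer gained. The window of chromosome 12 from 29 to 30 Mb, with Myt1l and Pxdn, had 293 gained and 28 lost sites, or 224 and 25 after rescaling to the same depth. The window of chromosome 17 from 14 to 15 Mb had 217 and 7. Chromosome 12 from 18 to 25 Mb had 1283 gained and 313 lost sites at 24 w.p.i., but 212 and 331 at 3 w.p.i. and 200 and 399 at 8 w.p.i., and after rescaling to the same depth 1077 of its 1625 sites were mixed. The 3-Mb zinc-finger cluster of chromosome 4 with Zfp986, Zfp600 and Zfp978 had 107 gained and 435 lost sites at 24 w.p.i., 202 and 109 at 3 w.p.i. and 112 and 199 at 8 w.p.i. Of its 554 sites, 290 were mixed after rescaling.

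Over all sites the overlap with the earlier time points was small. Of the 24-week gains 3869 (5.48%) overlapped a gain at 3 w.p.i. and 5414 (7.67%) a gain at 8 w.p.i., and 1220 and 1300 overlapped a loss. Of the 24-week losses 3642 (4.81%) and 4777 (6.31%) overlapped a loss, and 4629 and 5320 overlapped a gain. Seen from the other tables, 8.59% of the 3-week and 14.3% of the 8-week gains overlapped a 24-week gain, and 27.6% and 22.6% of their losses overlapped a 24-week loss. Gains that met sites of a single direction met gains in 76.2% at 3 w.p.i. and 81.0% at 8 w.p.i., beside 78.9% and 64.7% of all called sites in those tables. Losses met losses in 43.99% and 47.3%, beside 21.1% and 35.3%. So losses met losses more often than the tables as a whole would give, and gains did so at 8 w.p.i. but not at 3 w.p.i. At all 3 times 1010 sites were gained, 181 of them on chromosome 17 between 12 and 15 Mb, and 1351 were lost, 2 of them there.

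The direction of change followed the base composition of the sites. The median GC content was 48.2% in gained and 45.0% in lost sites, beside 41.8% over 3992834 tiles of 600 bp. The gained share rose from 19.9% of called sites below 36% GC to 73.7% at 55% GC or more. It fell with the soft-masked repeat share, from 61.1% at sites without masked bases to 20.1% at fully masked sites. CG dinucleotides, of which the promoter stretches shown above are full, numbered 8.11 on average in the central 600 bp of gained sites, 6.27 in lost sites and 5.10 in the tiles, and 27.9 and 21.5 in gained and lost promoter sites.

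This relation was not the same in the other tables. At 3 w.p.i. the gained share of H3K9me3 fell with GC, from 96.4% below 40% GC over 76.3% to 19.9% at 50% and more, and at 8 w.p.i. it was 60.6%, 65.9% and 70.2%. At 24 w.p.i. it was 22.8%, 44.3% and 66.2%. Among the other antibodies at 24 w.p.i., H3K27ac rose with GC (31.2%, 37.9% and 52.6%), whereas H3K27me3 (55.9%, 46.9% and 33.1%) and Pu.1 (65.6%, 48.1% and 39.3%) fell and H3.3 changed least (56.4%, 51.9% and 50.2%). How far differences in GC recovery between libraries set these shares was not tested.

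**Figure D5:**
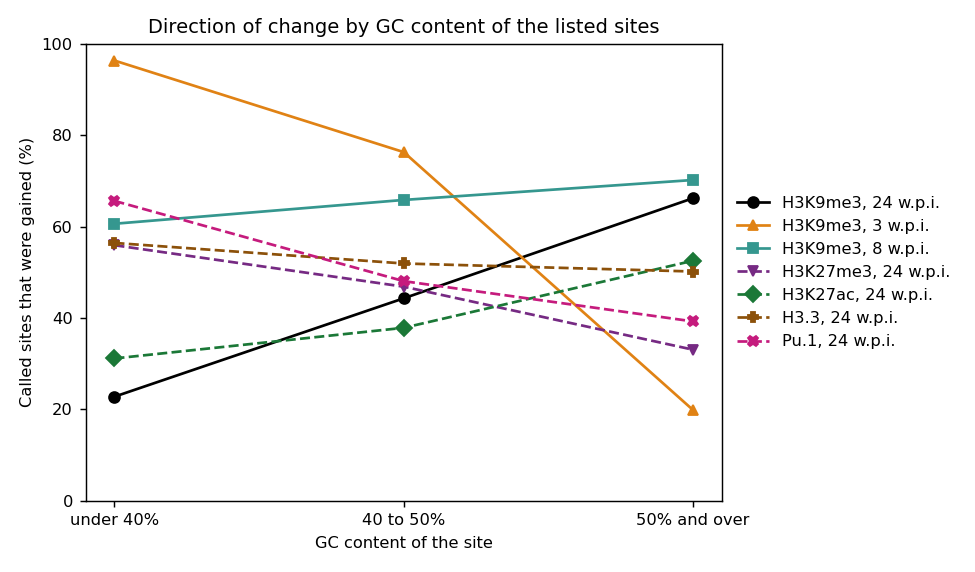
Share of called sites that were gained (vertical axis, %) by GC content of the site (horizontal axis, 3 classes) in each of the 7 tables. The line of H3K9me3 at 24 w.p.i. climbs from 22.8% to 66.2%, and the line at 3 w.p.i. drops from 96.4% to 19.9%.

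The other marks of the same mice were seen at a part of the H3K9me3 sites. H3K27me3 sites were listed at 17.7% of H3K9me3 gains and 9.19% of losses. At the gains 35.3% of the called H3K27me3 sites were gained (interval 34.5 to 36.1), beside 41.8% in the H3K27me3 table as a whole, and at the losses 42.7% (41.6 to 43.9). H3K27ac was listed at 21.9% of gains and 11.6% of losses, with 47.1% and 48.7% gained beside 42.5% in its table. H3.3 was gained in 50.7% and 51.8% of the cases beside 52.2%, and Pu.1 in 42.9% and 46.2% beside 47.8%.

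Telomere repeats stood out among the sequence features. Chosen after their values were seen, the 62 listed sites with a run of at least 5 tandem copies of TTAGGG, on either strand, comprised 61 gained sites and 1 lost site, on 18 chromosomes and none at a promoter. Some of them lie close to the ends of chromosomes and others inside chromosomes. The sites at chr11:121981851-121983050 and chr13:120320951-120322200, with runs of 29 and 31 copies, are near the ends of chromosomes of 122.08 and 120.42 Mb. A site with 34 copies near Adgre5 (chr8:83756251-83757450) had 25529 and 17422 against 13465 and 11389. The median over the 62 sites was 2311 and 1712 against 1275 and 1104, and Daxx-KO library 1 was the highest at 59 of them. The median change over the 61 gained sites alone was 1.72-fold. A pair of copies in a row was present in 0.152% of gained sites, 0.0502% of lost sites and 0.0302% of the tiles.

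The telomere repeat result depended on scaling. After rescaling to the same depth 5 of the 62 sites were gained, 56 mixed and 1 lost. In the other tables the repeats moved otherwise: of 8 overlapping H3K9me3 sites at 3 w.p.i. 7 were lost, at 8 w.p.i. 3 of 4 were gained, and at 24 w.p.i. 42 of 45 H3K27me3 and 46 of 48 H3K27ac sites were lost. Reads of interstitial and of true telomere repeats cannot be told apart.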

How the data were processed

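H3K9me3 CUT&Tag libraries of 2 Daxx-KO and 2 WT mice at 24 w.p.i. were analysed. The deposited values are normalized read counts per site, each library's reads divided by a constant. Per the file headers the authors made the tables with diffReps 1.55.6 (negative binomial test, windows of 600 bp in steps of 50 bp, fragments of 100 bp, cutoff 0.0001, gap 0); the submitters' processing notes name CASAVA 1.8.4, cutadapt 1.13, STAR 2.5.3, bedtools and mm10. Counts per library, and no total depth, are in the tables. The headers round the constant, so the value within that rounding that returned the most whole reads was taken (1.5669 for 1.57 in Daxx-KO library 1). Multiplying by this fitted constant returned whole reads within 0.1 for 100% of nonzero values below 60, which tells that 1 read is the unit of precision. The authors' columns of group averages, fold changes, p-values and directions were not used.

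Here, calls, sizes (pseudocount 1), overlaps (at least 1 bp), stretches and composition were computed with Python 3.11.15, numpy 2.4.6, pandas 2.3.3 and scipy 1.17.1, with GENCODE M21 genes on mm10, and were checked on simulated data. No test was run on the listed sites, because they had been selected on the same libraries, and 2 against 2 allows no exact permutation p below 0.333. Genes were named by a rule: Daxx, Spi1, Fbp1 and Fbp2; the 10 genes per direction with the largest promoter change, at sites with a higher-group mean of at least 20; the widest sites, longest stretches and largest differences; and up to 4 members of each gene list with a changed promoter. The members, lists and rules were chosen with earlier results of these data known. Telomere-repeat runs, steep wide losses and the regions of chromosomes 4 and 12 were picked after their values were seen.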

Additional observations from a re-analysis of the deposited data

Results flagged for a closer look

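Some regions changed in 1 direction at 24 w.p.i. and in the other at 3 or 8 w.p.i., in every library by the median over their listed sites. None of these differences between times was tested, the listed sites differ between the tables, and the tables were normalized separately. Of all called H3K9me3 sites 48.2% were gained at 24 w.p.i., but 78.9% at 3 w.p.i. and 64.7% at 8 w.p.i. The lost stretch on chromosome 9 had a median size of -1.72 at 24 w.p.i. and of 2.01 and 1.94 at 3 and 8 w.p.i., and the lost stretch on chromosome 3 had -1.19 at 24 and 1.802 at 3 w.p.i. The lost site with the most reads, on chromosome 2, had -0.74 at 24 and 1.59 at 3 w.p.i.

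Chromosome 12 from 18 to 25 Mb had 0.78 at 24 w.p.i. and -1.19 and -1.18 at 3 and 8 w.p.i. Within it, the windows of 1 Mb that start at 18, 23 and 22 Mb had 0.78, 0.79 and 0.76 at 24 w.p.i. The same windows had -1.15, -1.34 and -1.29 at 3 w.p.i. and -1.26, -1.33 and -1.26 at 8 w.p.i.

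The 10 windows of 1 Mb with the largest excess of losses at 24 w.p.i. all had a positive median at 3 w.p.i. They were picked for their losses at 24 w.p.i., and 78.9% of all called sites at 3 w.p.i. were gained. For the 3-Mb zinc-finger cluster of chromosome 4 with Zfp986, Zfp600 and Zfp978 the median was -0.76 at 24 and 1.12 at 3 w.p.i., and its windows from 147 and 146 Mb had -0.72 and -0.76 at 24 and 1.1295 and 0.88 at 3 w.p.i. The window with Grin2a on chromosome 16 had -1.10 at 24 w.p.i. and 1.86 and 1.66 at 3 and 8 w.p.i. The window with Zwint on chromosome 10 had -1.40 at 24 and 1.81 at 3 w.p.i., and the Olfr window of chromosome 2 had -1.32 and 1.62. The window with Nutm2 on chromosome 13 had -1.29 at 24 w.p.i. and 1.78 and 1.73 at 3 and 8 w.p.i., the window with Tshz2 on chromosome 2 had -1.33, 1.65 and 2.23, and the window of chromosome 10 from 124 Mb had -1.33, 1.71 and 1.62. The windows of chromosome 1 from 147 Mb and, with Cntnap5a, from 115 Mb had -1.52 and -1.25 at 24 and 1.88 and 2.04 at 3 w.p.i.

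Single sites showed such turns as well. Of the sites gained at 24 w.p.i., 1220 overlapped a loss at 3 w.p.i. and 1300 a loss at 8 w.p.i., and of the sites lost at 24 w.p.i., 4629 and 5320 overlapped a gain. These counts are read beside the 78.9% and 64.7% of called sites that were gained at 3 and 8 w.p.i. Groups of 2 libraries are too small for a search for outlying libraries.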

How the results depend on the processing

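Leaving out 1 library at a time gave 70815 to 72122 gained and 76095 to 77817 lost sites, median sizes of 1.57 to 2.31 and -1.80 to -1.33, promoter shares of 4.04% to 4.06% and 2.06% to 2.09%, 36 to 36 and 15 to 15 wide sites, and 2058 to 2209 gained and 2749 to 2857 lost stretches. A called site keeps its call by construction when a library is left out. The groups share replicate numbers but not mice, so no true pairing exists: with the replicate block, in which equal numbers were compared, 70916 sites were gained and 76270 lost, and the deviations of libraries of the same number correlated at -0.09. Promoter shares of gained and lost sites were 2.60% and 1.21% within 250 bp, 7.47% and 4.07% within 3 kb, 13.0% and 7.87% with the starts of all transcripts, and 4.53% and 2.26% at equal depth, an alternative chosen after seeing the data. Wide sites numbered 133 and 106 from 3 kb and 5 and 1 from 10 kb, and 7 wide gained sites stayed without chromosome 17 from 12 to 15 Mb, also chosen after seeing the data. Stretches numbered 1123 and 1401 with gaps up to 10 kb and 283 and 444 with at least 10 sites. The share of 24-week gains and losses with the same call at 3 or 8 w.p.i., 11.7% and 9.33%, was 8.25% and 6.93% with an overlap of at least 50% of the shorter site, 19.7% and 15.0% within 1 kb, and 9.64% and 6.74% for changes of at least 2-fold in both tables. Counts of gained and lost sites stayed within 1.5 times under every other setting. Scaling by the median ratio turned the direction of 34 sites and left 62187 lost sites. The causes of these shifts were not tested. With 5.22 to 9.11 reads per window on average, small changes at single sites are limited by depth. With gene bodies alone 104 Olfr genes had a gained and 195 a lost site, and with 20 kb on each side 599 and 840.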
